A study of Mus musculus with 3 samples.

Results

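The Pi16 Dpp4 fibroblasts of uninjured mouse sciatic nerve are 121 of the 880 mesenchymal cells (13.75%, 95% interval 11.5 to 16.2) that the authors deposited for that nerve. They were measured by Drop-seq, a droplet method that labels every captured transcript with the barcode of its cell and with a molecular identifier (UMI). A cell was taken as a member when its mean z-score over Pi16, Dpp4, Pcsk6 and Dmkn was above 0 and above its mean z-score over each of 4 other marker sets. Those sets were A (Sox9, Osr2, Etv1, Apod, Angptl7, Enpp2), C (Inmt, Gdf10, Adh1, Cxcl13), D (Comp, Fmod, Clec11a, Kazald1) and E (Slc2a1, Itgb4, Cldn1, Msln, Lypd2). The other 759 cells were 372 set A cells, 149 set C cells, 115 set D cells, 82 set E cells and 41 cells in which no set was above 0.

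The series holds 3 libraries, 1 per group. The injured libraries are distal sciatic nerve taken 9 days after the nerve was resected, from adult wildtype CD1 mice with myelin removal beads and from adult CD1 and C57BL/6 mice with FACS. The uninjured library is sciatic nerve of adult wildtype CD1 mice with myelin removal beads, of which only cells predicted to be mesenchymal are used here. Collagenase and trypsin were used to dissociate every nerve, and neither the number of animals per library nor the FACS gate is given in the sources used here. With 1 library per group there is no replicate check and no p-value, and single cells do not stand in for replicates.

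A peripheral nerve is wrapped in 3 layers of connective tissue, the outer epineurium, the perineurium around each bundle of axons and the endoneurium among the axons. Fibroblasts that carry Pi16 and Dpp4 are known from the fascia and the vessel adventitia of many mouse tissues, where they are described as undifferentiated and able to give rise to other fibroblasts. Pi16 encodes a secreted peptidase inhibitor, Dpp4 a cell surface dipeptidase, Pcsk6 a protease that cuts precursor proteins into active ones, and Dmkn the secreted protein dermokine, best known from the epidermis.

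Dmkn lies between Sbsn and Krtdap on mouse chromosome 7, all on the plus strand, and both neighbours were also high in the Pi16 Dpp4 fibroblasts. Sbsn (suprabasin) and Krtdap (keratinocyte differentiation associated protein) encode small secreted proteins of stratified epithelia. On GRCm38, Sbsn runs from 30751471 to 30756134, Dmkn from 30763756 to 30781063 and Krtdap from 30787896 to 30791097, a stretch of 39.6 kb with protein-coding annotation for all 3. The 3 genes were high in the same pool of cells, though Dmkn is itself a marker of the rule. UMIs of at least 2 of the 3 were seen in 18 of 121 fibroblasts and 1 of 759 other cells. Because of the shared pool, the 250 bases before each start in RefSeq (GRCm38.p6) are shown. They span chr7:30751221-30751470, chr7:30763506-30763755 and chr7:30787655-30787904, and capitals mark the motifs TGANTCA (N is any base) and TATAAA, both searched on both strands. Dmkn has more than 1 start in RefSeq, of which the first entry is shown, and the RefSeq start of Krtdap differs from the gene start given above.
Sbsn: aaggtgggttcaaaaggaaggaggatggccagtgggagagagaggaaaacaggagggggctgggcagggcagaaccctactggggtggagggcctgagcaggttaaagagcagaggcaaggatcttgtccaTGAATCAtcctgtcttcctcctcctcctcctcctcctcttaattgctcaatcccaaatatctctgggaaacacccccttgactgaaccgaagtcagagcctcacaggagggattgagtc
Dmkn: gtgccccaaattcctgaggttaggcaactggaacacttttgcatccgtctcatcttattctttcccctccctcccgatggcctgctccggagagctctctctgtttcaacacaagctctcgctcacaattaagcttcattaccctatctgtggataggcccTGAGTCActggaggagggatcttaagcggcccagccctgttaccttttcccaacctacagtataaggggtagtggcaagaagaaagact
Krtdap: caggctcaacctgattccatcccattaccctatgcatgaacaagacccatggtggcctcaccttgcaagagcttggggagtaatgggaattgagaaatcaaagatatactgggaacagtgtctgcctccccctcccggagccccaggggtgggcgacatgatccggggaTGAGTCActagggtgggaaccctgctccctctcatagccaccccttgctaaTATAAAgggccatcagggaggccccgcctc

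TGANTCA was present in all 3 windows. It lay at -119 to -113 before Sbsn (as TGAATCA), at -89 to -83 before Dmkn and at -81 to -75 before Krtdap (both as TGAGTCA). The motif that AP-1 factors are known to bind has G or C as its middle base, so the Sbsn match is not that motif. Over 27025 promoters of the same length TGANTCA with any middle base was present in 6.87%. No such share was counted for the narrower motif with G or C, which the Sbsn window lacks. Enrichment of that motif therefore cannot be read from these values. TATAAA was present before Krtdap alone of the 3, at -30 to -25, and in 13% of the 27025 promoters. These matches describe the letters only, and whether any factor binds there was not tested.

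Levels below are CPM values, the UMIs of a gene summed over the cells of a pool per 1000000 UMIs of that pool. The 121 fibroblasts held 249947 UMIs (median 1881 per cell, 1011 genes) and the other 759 cells 1919174 UMIs (median 2135 per cell, 1038 genes). Ranges in brackets are exact 95% intervals that cover counting error only. A gene is called higher or lower here when it reached 50 CPM in either pool and differed 2-fold or more with an interval that excluded 1. Within the uninjured library the cells compared are those the rule scored, so ratios and counts there describe the chosen cells and test nothing. Where a pool had 0 UMIs, the ratio was taken against 3 UMIs in that pool and is a lower bound.

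The markers that chose the fibroblasts had higher pooled levels in them than in each other group, though unequally. Pi16 had 5657 CPM in the fibroblasts and 838 CPM in set C, 396 CPM in set D, 116 CPM in set E, 36.0 CPM in set A and 36.9 CPM in cells of no set. A Pi16 UMI was present in 92.6% of the fibroblasts and 17.3% of the other cells. Dpp4 had 712 CPM in the fibroblasts (66.1% of cells) and 105 CPM in the other cells (17.1% of cells). Pcsk6 had 452 CPM (47.9% of cells) and 4.69 CPM (0.92% of cells), and Dmkn had 64.0 CPM (9.09% of cells) against 0 UMIs in the other cells. These values chose the cells. Each marker was also left out in turn and the cells chosen by the other 3. In chosen and remaining cells, the marker left out then had 4342 and 389 CPM (Pi16), 619 and 119 CPM (Dpp4), 333 and 16.9 CPM (Pcsk6), and 41.5 and 2.13 CPM (Dmkn). In the same order, 97 of 119, 107 of 120, 107 of 136 and 118 of 144 chosen cells were fibroblasts by the full rule. The 4 markers were grouped with earlier results of these data known, so these values are a description and no independent check.

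Single fibroblasts seldom showed all 4 markers. UMIs of 1 marker were seen in 25 fibroblasts, of 2 in 54, of 3 in 40 and of all 4 in 2, while 526 of the 759 other cells had none. Pi16 and Dpp4 UMIs occurred together in 75 of 121 fibroblasts (62.0%, 52.7 to 70.7) and 30 of 759 other cells (3.95%, 2.68 to 5.59). Per cell, Pi16 had a median of 61.7 UMIs per 10000 in the fibroblasts, with a range of 0 to 192, against a median of 0 and a maximum of 168 in the other cells. With each cell thinned to 1000 UMIs, which left out 16 fibroblasts and 103 other cells, Pi16 was seen in 86.7% of fibroblasts and 11.4% of other cells, among them 4.39% of set A cells and 28.7% of set C cells. The median fibroblast score was 1.11 and the highest 5.78. Just inside the threshold lay scores of 0.023, 0.025 and 0.043, and just outside, of 2 cells in which set B was highest but not above 0, the nearer scored -0.040. A further 157 cells had a set B score above 0 and were placed in another set. Of the fibroblasts, 6 lay within 0.1 of their next set and 17 within 0.25. Another set was also above 0 in 73 of the 121 fibroblasts (60.3%), and set C was above 0 in 52 (43.0%). When the 761 thinned cells were scored anew, 112 met the rule, of which 86 were fibroblasts in the full data.

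**Figure D1:**
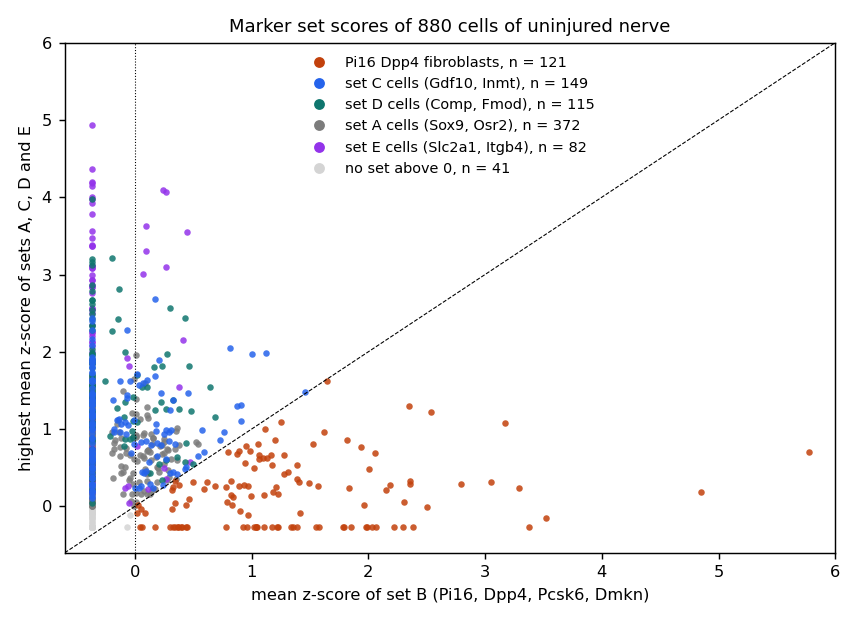
Each point is 1 of 880 cells, with its mean z-score over Pi16, Dpp4, Pcsk6 and Dmkn on the x axis and the highest of its 4 other set scores on the y axis. The 121 fibroblasts lie right of 0 and below the dashed line of equal scores, 6 of them within 0.1 of that line.

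The nearest group by correlation was set C. Across genes, the correlation of log2(CPM + 10) with the fibroblasts was 0.846 for set C, 0.764 for set D, 0.645 for set A, 0.594 for cells of no set and 0.548 for set E, over 3935 to 4778 genes that are not independent of each other. Against set C, 328 of 4025 genes were higher (8.15%) and 199 lower (4.94%), and against set A 802 of 4084 were higher (19.6%) and 400 lower (9.79%). The shares were 18.7% higher and 5.92% lower against set D, 11.6% and 16.5% against set E, and 5.03% and 6.87% against cells of no set. Sets A, C, D and E held 1028658, 345926, 318426 and 171987 UMIs, and cells of no set 54177 UMIs. Intervals are wider in a smaller pool, so the shares and correlations also depend on pool size and are no plain measure of likeness. The set C markers helped to place the cells, so their levels only describe the groups. Cxcl13, which encodes a B cell attracting chemokine, had 448 CPM in the fibroblasts and 740 CPM in set C, but at most 6.28 CPM in sets A, D and E. Inmt, a methyltransferase gene, was at 288 CPM in the fibroblasts against 2570 CPM in set C, and the growth factor gene Gdf10 at 76.0 CPM against 1399 CPM.

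Against all other cells, 488 of 4031 genes were higher in the fibroblasts (12.1%) and 312 lower (7.74%). The median log2 ratio of all 4031 genes was 0.20, and ratios are to be read against that value. DESeq2 size factors moved every ratio by -0.18 and gave 307 higher and 429 lower genes, and TMM factors moved them by -0.20 and gave 297 and 441. Apod, a set A marker that encodes apolipoprotein D, alone took 6129 CPM of the fibroblasts against 42527 CPM of the other cells.

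At least 2-fold higher than in each of the 5 other groups were 60 of 3544 genes (1.69%), and signalling and matrix genes were among the first of them. No interval was applied to this count, and pools with fewer than 3 UMIs were taken at 3 UMIs. In the cells of no set 3 UMIs make 55.4 CPM. No gene less than 2-fold above that level in the fibroblasts could pass, Dmkn (64.0 CPM) among them. The 3544 genes start at 50 CPM, so for part of them the outcome was fixed and the share of 1.69% is too low by an unknown amount. The count and its order therefore depend in part on that smallest pool. Smpd3, encoding a neutral sphingomyelinase, had 696 CPM in the fibroblasts, 145 CPM in set C and at most 73.8 CPM in the rest (log2 ratio to all other cells 3.83, 3.46 to 4.21). Edn1, the endothelin-1 gene, had 244 CPM against at most 58.1 CPM in another group. Sema3c, a secreted semaphorin that guides axons and vessels, had 1156 CPM against 295 CPM in set C and 254 CPM in set D (log2 3.14 over all other cells, 2.90 to 3.39).

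Fndc1, which encodes a fibronectin type III domain protein, had 1112 CPM against 309 CPM in set C, 267 CPM in set D and 10.7 CPM in set A. Ugdh, whose enzyme makes the UDP-glucuronate used for hyaluronan, had 880 CPM against 122 to 225 CPM in the 5 groups. Pla1a, a phosphatidylserine phospholipase gene, had 520 CPM against at most 112 CPM. The histone deacetylase gene Hdac7 (228 CPM), the angiopoietin receptor gene Tek (216 CPM), Zfp385a (188 CPM), encoding a zinc finger protein, and Ppp1r14b (184 CPM), encoding a phosphatase inhibitor, completed the first 12 of these genes with Krtdap and Sbsn. Smpd3 overlaps Prmt7, Hdac7 overlaps Slc48a1 and Ppp1r14b overlaps Plcb3 on the opposite strand, and whether the counting used strand is not known here, so part of these counts could belong to the partner. Tek and Edn1 are also endothelial genes. The endothelial marker list summed to 136 CPM in the fibroblasts, where 8 of 9 markers were seen and the receptor Tie1 was at 0 UMIs, and to 229 CPM in the other cells. Its part in Tek and Edn1 was not tested.

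The 3 chromosome 7 genes were seen in few cells. Krtdap had 66 UMIs in 20 fibroblasts and 4 UMIs in 4 of the other cells (264 and 2.08 CPM, log2 6.99, 5.56 to 8.90). Sbsn had 57 UMIs in 22 fibroblasts and 37 UMIs in 22 other cells (228 and 19.3 CPM, log2 3.56, 2.94 to 4.20). Dmkn had 16 UMIs in 11 fibroblasts, at least 5.36 on the log2 scale over the other cells. With each cell thinned to 1000 UMIs, Krtdap was seen in 13.3% of fibroblasts and 0.152% of other cells, and Sbsn in 11.4% and 1.37%. Krtdap and Sbsn UMIs occurred together in 14 of 121 fibroblasts (11.6%, 6.47 to 18.7) and 1 of 759 other cells (0.132%, 0.00334 to 0.732).

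Since Dmkn is a marker in the rule, the cells were also chosen without it, and Krtdap was then at log2 5.65 and Sbsn at 2.76. Both were seen together in 13 of the 144 cells so chosen (9.03%, 4.89 to 14.9) and 2 of the 736 others (0.272%, 0.0329 to 0.978). The next gene in the table before Sbsn, Tmem147, had 100.02 CPM in the fibroblasts and 77.6 CPM in the other cells, which is no call, and the 4 others within 100 kb that the table holds had at most 4 UMIs in either pool. The keratinocyte marker list summed to 24.0 CPM in the fibroblasts and 27.6 CPM in the other cells, all of it Krt10, with Krt5 at 0 UMIs in both. Only these 2 of the 4 markers on that list had an entry in the uninjured data.

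The highest ratios after Krtdap belonged to genes of low level. Cmah, an enzyme gene of sialic acid synthesis, had 148 and 1.56 CPM (log2 6.57, 4.91 to 8.91) and was seen in 25 fibroblasts. Chst1, encoding a keratan sulphate sulphotransferase, was at log2 5.08, Dact2, an inhibitor of Wnt and TGF-beta signalling, at 5.06 (3.19 to 7.51) and the actin-binding protein gene Aif1l at 4.94. Islr2, a leucine-rich repeat receptor gene known from neurons, was at 4.48, though it overlaps Islr on the same strand, which had 199 UMIs in the fibroblasts. Uchl1, a ubiquitin hydrolase gene (4.32), Stmn4, a microtubule regulator (4.28), the metalloprotease gene Adamts16 (4.26), the retinoic acid enzyme gene Aldh1a3 (4.26), the hyaluronan synthase gene Has1 (4.16) and the protocadherin gene Pcdh20 (4.02) followed. Their levels in the fibroblasts were 52.0 to 160 CPM, against 1.56 to 8.34 CPM in the other cells. Has1 rested on 10 fibroblasts and Chst1 on 11, with 21.4% and 22.7% of the UMIs from 1 cell. Dact2 and Uchl1 rested on 13 UMIs each, in 9 and 11 fibroblasts, with 15.4% from 1 cell. The share from 1 cell was 15.8% for Pcdh20 and 18.2% for Krtdap.

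**Figure D2:**
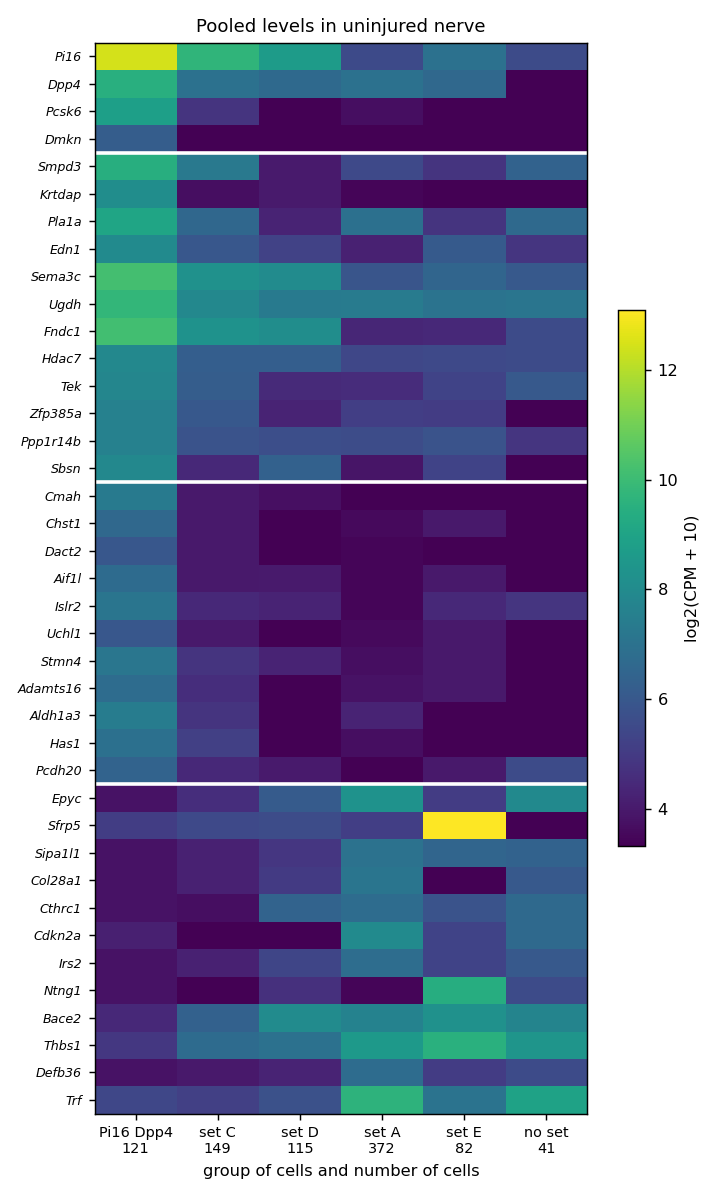
The colour gives log2(CPM + 10) of each pooled group, with the Pi16 Dpp4 fibroblasts at the left and the number of cells under each group. From top to bottom the blocks are the 4 markers of the rule, the 12 genes at least 2-fold above every other group, the remaining genes of highest ratio and the 12 of lowest ratio, of which Sfrp5 is bright in set E alone (8698 CPM).

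The lowest ratios traced to different groups. Epyc, encoding the small proteoglycan epiphycan, had 1 UMI in the fibroblasts (4.001 CPM), against 186 CPM in the other cells and 307 CPM in set A (log2 -5.54, -10.85 to -3.05). Sfrp5, a secreted Wnt antagonist, had 24.0 CPM in the fibroblasts and 8698 CPM in set E (log2 -5.07 to all other cells). Ntng1, a netrin-like adhesion gene, had 4.001 CPM against 669 CPM in set E.

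Trf, the transferrin gene, had 32.0 CPM against 453 CPM in all other cells, and the cell cycle inhibitor gene Cdkn2a 8.002 CPM against 137 CPM, with 245 CPM in set A. Thbs1, encoding the matrix protein thrombospondin-1, had 20.0 CPM against 315 CPM, and Bace2, a protease gene, 12.003 CPM against 190 CPM. Col28a1, Cthrc1, Irs2, Sipa1l1 and Defb36 each had 1 UMI in the fibroblasts, against 58.9 to 77.6 CPM in the other cells.

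Genes known from Pi16 or Dpp4 positive fibroblasts of other mouse tissues were high as a list. All but 1 of the 25 tested, 24 genes, were higher, 0 were lower and the median stood at 2.26 (log2). The list was chosen with results of these data known, so it is not independent evidence. Cd55, a surface inhibitor of complement, had 492 CPM in the fibroblasts and 60.4 CPM in the other cells (log2 3.03, 2.65 to 3.40). Cd248, a surface glycoprotein gene of stromal cells, had 1292 and 188 CPM (2.78, 2.56 to 3.00), and Procr, the protein C receptor gene, 764 and 154 CPM (2.31, 2.04 to 2.58).

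Some genes of that list were shared with set C. Ly6a, encoding the surface protein Sca-1, had 3285 CPM in the fibroblasts and 3137 CPM in set C, against 248 CPM in set A. Ly6c1 had 1996 CPM against 1518 CPM in set C, and Pcolce2, an enhancer of collagen processing, 1452 CPM against 1121 CPM in set D. Cd34 was spread over all groups, with 1356 CPM in the fibroblasts and 209 to 794 CPM elsewhere. Thy1 was not called, with 200.04 CPM in the fibroblasts and 163 CPM in the other cells.

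Matrix genes differed by class. Of 14 elastic fibre and microfibril genes 6 were higher and 0 lower (median 0.80). Fbn1, encoding fibrillin-1, had 3261 and 641 CPM (log2 2.35, 2.22 to 2.48), Emilin2 580 and 76.6 CPM (2.92, 2.58 to 3.26), Loxl1, an elastin cross-linking enzyme gene, 784 and 188 CPM (2.06, 1.81 to 2.32), and the microfibril gene Mfap5 2741 and 778 CPM (1.82, 1.68 to 1.95). Mfap5 had 2239 CPM in set E too.

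Of 21 collagen genes 2 were higher and 7 lower (median -0.43). The fibril-associated collagen genes Col14a1 (1016 and 254 CPM, log2 2.00) and Col12a1 (220.05 and 60.4 CPM, log2 1.86) were the 2 higher. Col15a1, a basement membrane collagen gene, had 328 and 1698 CPM (log2 -2.37), and Col1a1, the main fibrillar collagen gene, 4305 and 9090 CPM (log2 -1.08). Of 9 small proteoglycans 1 was higher and 3 lower: Aspn had 1124 and 460 CPM (log2 1.29), Lum 1836 and 6889 CPM (-1.91), Ecm2 164 and 485 CPM (-1.56), and Dcn, the decorin gene, 19920 and 45784 CPM (-1.20). With each cell weighted equally 4 collagens were lower, and with sets A, C, D and E at equal weight 1 was higher and 3 lower. Of 14 collagen processing genes 3 were higher (Loxl1, Pcolce2 and Bmp1) and 0 lower, and of 11 basement membrane genes 1 was higher (Nid1) and 1 lower (Lama2).

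Genes that make or bind hyaluronan were higher for 3 of 5 tested and lower for 0 (median 1.05), namely Has1, Ugdh and Itih5. Among proteases and their inhibitors, 6 of 22 were higher and 4 lower (median 0.08). Plau, the urokinase gene, had 400.08 and 59.9 CPM (log2 2.74), and Adamts5, which cleaves proteoglycans, 920 and 263 CPM (log2 1.81).

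**Figure D3:**
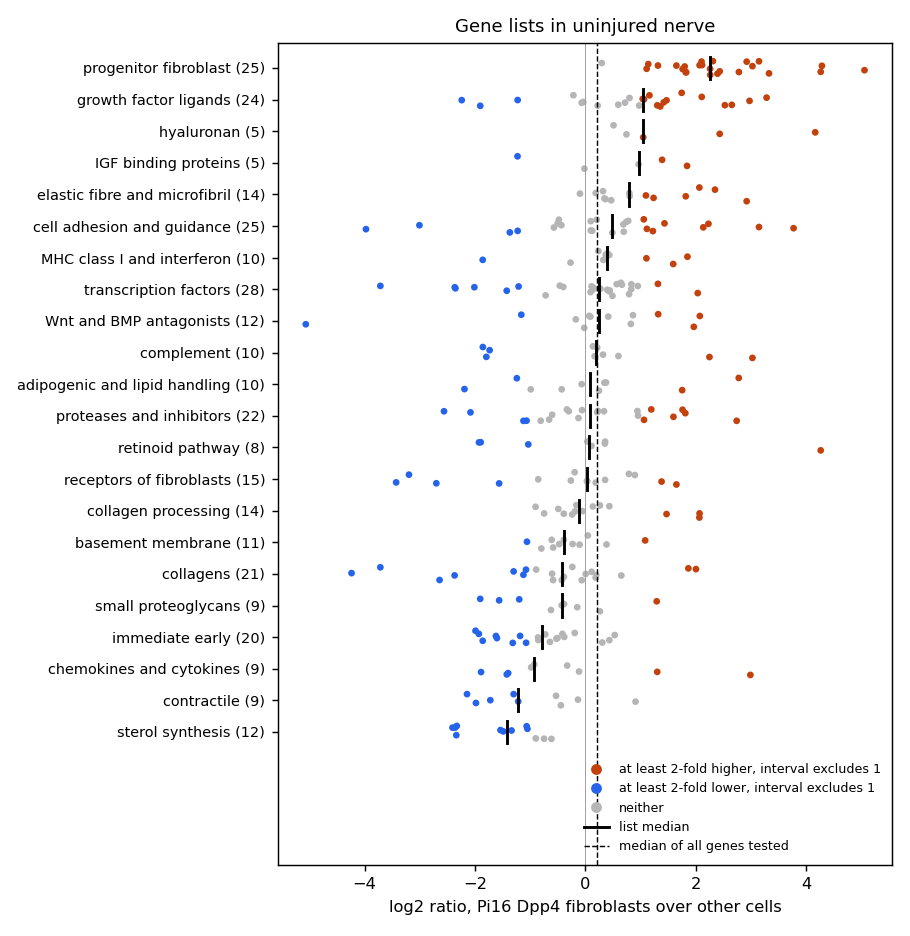
Each point is a tested gene of 1 of 22 lists (number tested in brackets), placed by its log2 ratio of Pi16 Dpp4 fibroblasts over other cells of uninjured nerve. The black bar is the list median and the dashed line the median of all 4031 genes (0.20), with progenitor fibroblast genes (2.26) at the top and sterol synthesis genes (-1.41) at the bottom.

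Secreted factors formed another list above the median of all genes. Among growth factor ligands, 13 of 24 were higher and 3 lower (median 1.05). Figf, encoding VEGF-D, had 184 and 23.5 CPM (log2 2.97, 2.35 to 3.60), Pdgfd 72.0 and 11.5 CPM (2.65), Fgf18 92.0 and 21.4 CPM (2.11), and Csf1, the macrophage growth factor gene, 272 and 110 CPM (1.30). Bmp2 (76.0 and 7.82 CPM, log2 3.28) rested on 10 fibroblasts and Fgf9 (108 and 18.8 CPM, log2 2.53) on 9. Igf2 (12.003 and 56.8 CPM) and the midkine gene Mdk (20.0 and 75.03 CPM) were among the 3 lower. With sets A, C, D and E at equal weight the ligands called higher were 9, and without cells holding other types' markers also 9.

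Of 12 Wnt and BMP antagonists 3 were higher and 2 lower (median 0.25). Sfrp2 had 2437 and 579 CPM (log2 2.07, 1.93 to 2.22) and Dkk2 652 and 167 CPM (1.96, 1.68 to 2.24). Both were also high in set C, with Sfrp2 at 1732 CPM and Dkk2 at 691 CPM. Of 5 IGF binding proteins 2 were higher, Igfbp5 (6249 and 1745 CPM, log2 1.84) and Igfbp4 (2369 and 905 CPM, log2 1.39), and 1 lower, Igfbp7 (1312 and 3082 CPM, log2 -1.23). Igfbp6 had 4297 and 4356 CPM.

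Immune mediators went both ways. Of 10 complement genes 2 were higher and 3 lower (median 0.19): C3, the central component, had 2497 and 526 CPM (log2 2.25, 2.10 to 2.39), with 2000 CPM in set C. Of 9 chemokines and cytokines 2 were higher and 3 lower (median -0.93), with the cytokine gene Il18 at 124 and 15.6 CPM (log2 2.99) and the monocyte attractant gene Ccl2 at 32.0 and 119 CPM (log2 -1.89). Macrophage markers summed to 28.006 CPM in the fibroblasts, where 3 of 10 were seen, and 18.2 CPM in the other cells, and Csf1r, C1qa, C1qb, C1qc, Cd163 and Mrc1 were at 0 UMIs in the fibroblasts. T cell and B cell markers summed to 0 UMIs there.

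Some receptor genes and the enzyme gene Nt5e were lower in the fibroblasts than in set A. Gfra1, a GDNF family receptor, had 20.0 CPM in the fibroblasts and 369 CPM in set A (log2 -3.43 to all other cells), Ngfr, the low-affinity neurotrophin receptor, 12.003 CPM against 129 CPM in set A, and Nt5e, which makes adenosine, 8.002 CPM against 115 CPM in set A. Of 15 receptors tested 2 were higher, Ackr3 and Tgfbr2, and 4 lower (median 0.03). Of 25 adhesion and guidance genes 8 were higher and 4 lower (median 0.49). Among the higher were Sema3c, Sema3e (64.0 and 4.69 CPM in all other cells, log2 3.77) and the collagen-binding integrin gene Itga11 (144 and 30.7 CPM, log2 2.23). Sema3e rested on 16 UMIs in 11 fibroblasts. The matricellular gene Postn was also higher (1432 and 326 CPM, log2 2.13) and had 942 CPM in set E.

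Of 28 transcription factor genes 2 were higher, Ebf3 (96.0 and 23.5 CPM, log2 2.03) and Creb5 (132 and 53.2 CPM, log2 1.31), and 6 were lower (median 0.25). Nr2f2, an orphan nuclear receptor gene, had 72.0 and 372 CPM (log2 -2.37, -3.13 to -1.70), and Gli1, a target of hedgehog signalling, 20.0 and 80.8 CPM (log2 -2.01).

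Lists of few calls are to be read against the 12.1% of all genes called higher and the 7.74% called lower. Of 8 retinoid pathway genes 1 was higher (Aldh1a3) and 3 lower (median 0.07), of 10 adipogenic and lipid handling genes 2 were higher (Ptgs2 and Ptgis) and 2 lower (Apoe and Gpc3, median 0.09), and of 10 MHC class I and interferon genes 3 were higher and 1 lower (median 0.38). Ptgs2 (100.02 and 14.6 CPM) rested on 8 fibroblasts, with 32% of its UMIs from 1 cell.

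Among sterol synthesis genes, 9 of 12 tested were lower and 0 higher (median -1.41). Hmgcs1, an early enzyme of the pathway, had 96.02 and 279 CPM (log2 -1.54), and Sc4mol 40.0 CPM in the fibroblasts against 203 CPM in all other cells and 333 CPM in set A. With sets A, C, D and E at equal weight 5 were lower. Of the immediate early genes, which also respond to tissue dissociation, 8 of 20 were lower and 0 higher (median -0.79), or 5 lower with the sets at equal weight. Fos had 2725 and 6792 CPM (log2 -1.32) and Fosb 752 and 2735 CPM (log2 -1.86), with set A at 10066 and 4384 CPM and set C at 3388 and 674 CPM. Of 9 contractile genes 5 were lower and 0 higher (median -1.22). The smooth muscle gene Tagln had 24.0 CPM in the fibroblasts and 936 CPM in set E. Pericyte and smooth muscle markers summed to 152 CPM in the fibroblasts, with 7 of 7 seen, and 198 CPM in the other cells. When cells with at least 2 UMIs of other cell types' markers were left out, 2 contractile genes were lower and Tagln stood at log2 0.25; thinned to 1000 UMIs, 0 were called.

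Markers of Schwann cells were present at low level in both pools. The myelinating Schwann cell list summed to 300.1 CPM in the fibroblasts and 181 CPM in the other cells, with 6 of 6 markers seen, and the list of other Schwann cell markers to 292 and 358 CPM. The pan mesenchymal list, Pdgfra and 7 other genes such as Col1a1 and Dcn, summed to 53731 and 103635 CPM, with 8 of 8 seen in the fibroblasts. At least 2 UMIs of other cell types' markers were found in 53 of 121 fibroblasts and 469 of 759 other cells.

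The fibroblasts also varied among themselves. The 58 in which Pcsk6 was seen were deeper than the 63 in which it was not (median 2261.5 and 1645 UMIs per cell), and a deeper cell has more chance to show a Pcsk6 UMI. Of 4515 genes 181 were higher in the cells with Pcsk6 (4.01%) and 162 lower (3.59%), and since Pcsk6 is a marker of the rule these values are a description. On the pooled scale Sbsn had 358 CPM in cells with Pcsk6 and 70.8 CPM in cells without it (log2 2.34, 1.25 to 3.63), and Limch1, an actin regulator gene, 292 and 62.0 CPM (log2 2.24, 1.06 to 3.64). Krtdap had 358 and 151 CPM. The set A marker Apod was lower in the pool of cells with Pcsk6. It had 2299 CPM there against 10775 CPM in cells without Pcsk6 (log2 -2.23, -2.41 to -2.05). Across all the fibroblasts Apod was uneven, with a median of 13.2 UMIs per 10000, an upper quartile of 27.8 and a maximum of 918. A single fibroblast held up to 220 Apod UMIs, against 1217 in the whole pool without Pcsk6. A few cells rich in Apod can carry a pooled level, and whether most cells shared the difference was not tested. As a set A marker, Apod also helped to place the cells. Dpp4 had 518 and 947 CPM (log2 -0.87, -1.32 to -0.42), which is no call. Fndc1 (1088 and 1142 CPM), Smpd3 (657 and 744 CPM) and Ly6a (3117 and 3489 CPM) were not called between these cells.

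Cells that meet the same rule were found in both injured libraries. In the injured beads library they were 178 of 1289 mesenchymal cells (13.8%, 11.97 to 15.8), and in the FACS library 87 of 619 cells scored as mesenchymal (14.1%, 11.4 to 17.0). Scores are relative to each library's own mean and spread, so these shares say little about numbers. Scored with the mean and SD of the uninjured cells, 143 injured beads cells (11.1%) met the rule. Their Pi16 level was 1924 CPM in the injured beads library and 2976 CPM in the FACS library, against 5657 CPM in the uninjured fibroblasts, and their median scores were 0.49, 0.94 and 1.11. Lower levels per cell and admixture of other cells cannot be told apart in these pools. The uninjured library shared 0 cell barcodes with either injured library, and the injured libraries shared 1.

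Within the injured beads library, 124 of 4100 genes were higher in these cells than in the other mesenchymal cells (3.02%) and 114 lower (2.78%), and within the FACS library 283 of 3950 were higher (7.16%) and 281 lower (7.11%). Leaving out the genes of the marker sets, 85 genes were higher in both the injured beads and the uninjured library, which is 81.7% of the 104 calls of the injured library and 29.5% of the 288 of the uninjured one. Of those 288 genes, 246 (85.4%) were above 0 in the injured library, against 54.6% of all 3397 genes tested in both. In all 3 libraries 71 of 3134 genes were higher and 37 lower.

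Smpd3 was higher in all 3 libraries, with log2 ratios of 4.60 in the injured beads, 5.04 in the FACS and 3.83 in the uninjured library. Edn1 was at 3.29, 5.01 and 3.32, Cd55 at 2.93, 3.83 and 3.03, Sema3c at 2.31, 3.79 and 3.14, and Tek at 2.62, 3.45 and 3.11 in the same order. Krtdap was at 5.39, 5.13 and 6.99, under the 50 CPM needed for a call in the injured beads library (29.8 and 0.71 CPM, 3.58 to 7.81). Trf (-2.73, -3.82 and -3.82) and Cdkn2a (-2.42, -5.45 and -4.09) were lower in all 3. Cdkn2a rested on 1 UMI in the FACS cells that meet the rule (-10.76 to -2.97) and 2 in the uninjured fibroblasts (-7.15 to -2.23).

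Other genes did not repeat. Aldh1a3 was at -0.56 and -1.46 in the injured beads and FACS libraries against 4.26 in the uninjured one, Has1 at 0.63 and -0.48 against 4.16, and Chst1 at 0.57 and 0.35 against 5.08. Thbs1 was at 0.30 and -0.95 against -3.98. Whether these differences exceed the spread between animals was not tested, and the FACS library also differs from the uninjured one in isolation and strain.

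**Figure D4:**
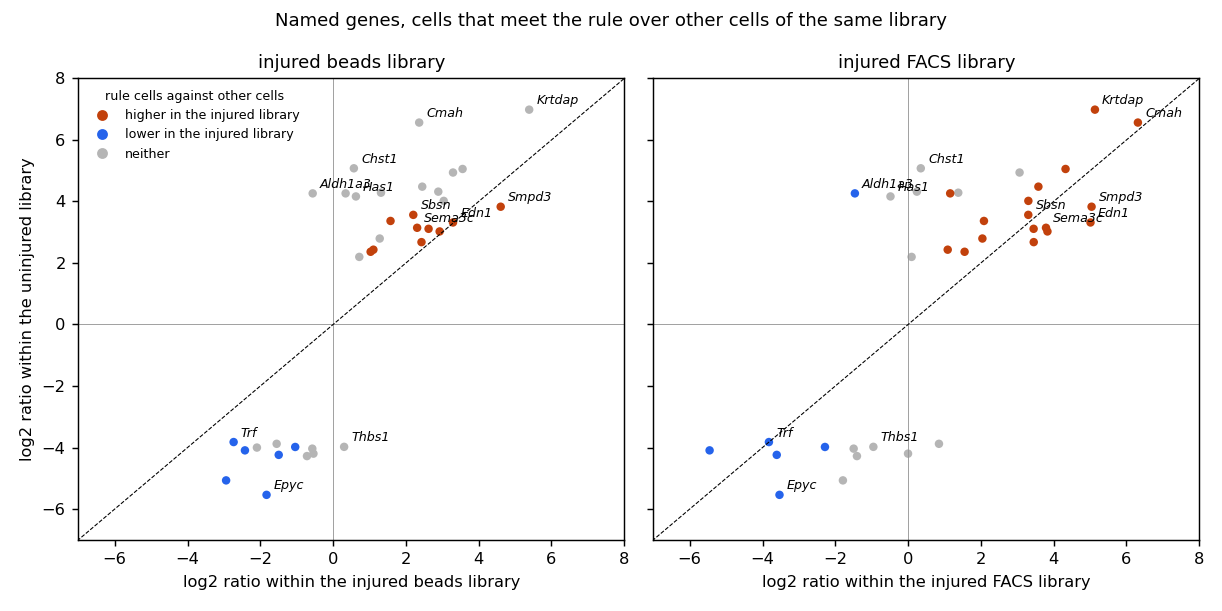
Points are the named genes, each placed by its log2 ratio of cells that meet the rule over other mesenchymal cells, in an injured library on the x axis and in the uninjured library on the y axis. Smpd3, Edn1 and Sema3c lie near the dashed line of equal ratios in the injured beads panel, while Aldh1a3, Has1 and Chst1 lie near or left of 0 on the x axis despite ratios of 4.16 to 5.08 on the y axis.

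The cells that meet the rule were last compared between injured and uninjured nerve. Of 4376 genes 431 were higher in injured beads cells (9.85%) and 397 lower (9.07%), and the median of all was 0.08 on the log2 scale. With each cell thinned to 1000 UMIs the counts were 265 higher, of which 171 were shared with the full data, and 246 lower, of which 178 were shared. With the FACS library as the injured sample, 323 of 4151 were higher (7.78%) and 414 lower (9.97%), and 145 higher and 176 lower genes were shared with the beads library. This comparison and those above share the uninjured fibroblasts. The FACS library also differs from the uninjured one in isolation (FACS against beads) and in strain (CD1 and C57BL/6 against CD1). Injury cannot be told apart from these in FACS cells. Cthrc1, a secreted protein gene of repairing tissue, had 893 CPM in injured beads cells and 4.001 CPM, 1 UMI, in uninjured cells (log2 7.80, 5.32 to 13.1), with 1058 CPM in FACS cells. Tnc, encoding tenascin C, had 680 CPM in injured beads cells, 101 CPM in FACS cells and 16.0 CPM in uninjured cells. The imprinted genes Dlk1 (958, 1191 and 24.0 CPM) and Mest (2405, 1066 and 64.0 CPM) were likewise higher in both injured pools. Mest overlaps Copg2 on the opposite strand, which was higher too (69 UMIs in injured beads cells and 3 in uninjured cells). Spp1, the osteopontin gene, had 639 CPM in injured beads cells, 316 CPM in FACS cells and 0 UMIs in uninjured cells, a log2 ratio of at least 5.74 for the beads library.

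The other mesenchymal cells of the injured beads library also held these genes, with 1299 CPM of Cthrc1, 994 CPM of Tnc, 1577 CPM of Mest and 1193 CPM of Spp1, and 422 CPM of Dlk1. Macrophage markers summed to 244 CPM in the injured beads cells that meet the rule, 1110 CPM in the FACS ones and 28.006 CPM in the uninjured ones, and neutrophil markers to 91.3, 2.90 and 4.001 CPM. Their part in Spp1, Il6, Cxcl5 and the other mediators was not tested.

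Il6, an inflammatory cytokine gene, had 168 CPM in injured beads cells, 29.0 CPM in FACS cells and 4.001 CPM in uninjured cells, and the neutrophil attractant gene Cxcl5 315, 11.6 and 0 CPM. Of 12 chemokines and cytokines 6 were higher and 1 lower with the beads library (median 0.88) and 2 higher and 3 lower of 11 with the FACS library (median -0.27). Mdk (554, 452 and 20.0 CPM), Epyc (147, 17.4 and 4.001 CPM) and Col28a1 (129, 14.5 and 4.001 CPM) completed the 10 highest. Of 21 collagens 9 were higher and 1 lower with the beads library (median 0.76), with Col1a1 at 9966, 9956 and 4305 CPM, but 3 of 18 were higher and 2 lower with the FACS library. Of 7 contractile genes 4 were higher and 0 lower with the beads library (median 1.29), and 1 with the FACS library (median 0.82).

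Among the lowest ratios was Krtdap, with 29.8 CPM in injured beads cells, 78.2 CPM in FACS cells and 264 CPM in uninjured cells (beads log2 -3.15, -4.03 to -2.34). Sbsn had 82.02, 249 and 228 CPM and Dmkn 26.1, 43.5 and 64.0 CPM. Myoc, encoding the secreted protein myocilin, had 78.3, 116 and 952 CPM (log2 -3.60, -4.11 to -3.13), and Smpd3 116, 110 and 696 CPM (log2 -2.59). Bmp4, a growth factor gene, had 5.59, 14.5 and 72.0 CPM. Others among the lowest, each at 52.0 to 68.0 CPM in uninjured cells and at most 14.5 CPM in either injured pool, were the transcription regulator genes Zbtb16 and Nr1d1, the sterol regulator gene Insig1, the adrenergic receptor gene Adra1b, the tetraspanin gene Tspan7 and the small nucleolar RNA Snord13. Nr1d1 overlaps Thra on the opposite strand, which was also lower (80 UMIs in injured beads cells and 90 in uninjured cells, log2 -1.27), so part of its counts could belong to Thra.

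Of 5 sterol synthesis genes tested 4 were lower and 0 higher in injured beads cells (median -2.91), and of 6 tested 5 were lower in FACS cells (median -2.00). Hmgcs1 had 46.6 CPM in injured beads cells and 96.02 CPM in uninjured cells. With a margin of 0.25 over the next set 1 was lower (median -0.28), and without cells holding other types' markers 2 were lower and the median stood at 0.15.

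Of the 25 progenitor fibroblast genes tested, 1 (Thy1) was higher and 18 were lower in injured beads cells (median -1.31), and 0 were higher and 7 lower in FACS cells (median -0.54). Pcolce2 had 321, 466 and 1452 CPM in injured beads, FACS and uninjured cells, Procr 227, 246 and 764 CPM, and Limch1 31.7, 58.0 and 188 CPM. Ly6a was not called, with 2256, 4117 and 3285 CPM, and neither was Fbn1, with 2537, 3109 and 3261 CPM. With a margin of 0.25 over the next set, or with each cell weighted equally, 10 of the list were lower in injured beads cells, and 6 with cells scored by the uninjured mean and SD. The list was chosen for its level in such cells, and Pi16 itself was lower too, as given above.

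**Figure D5:**
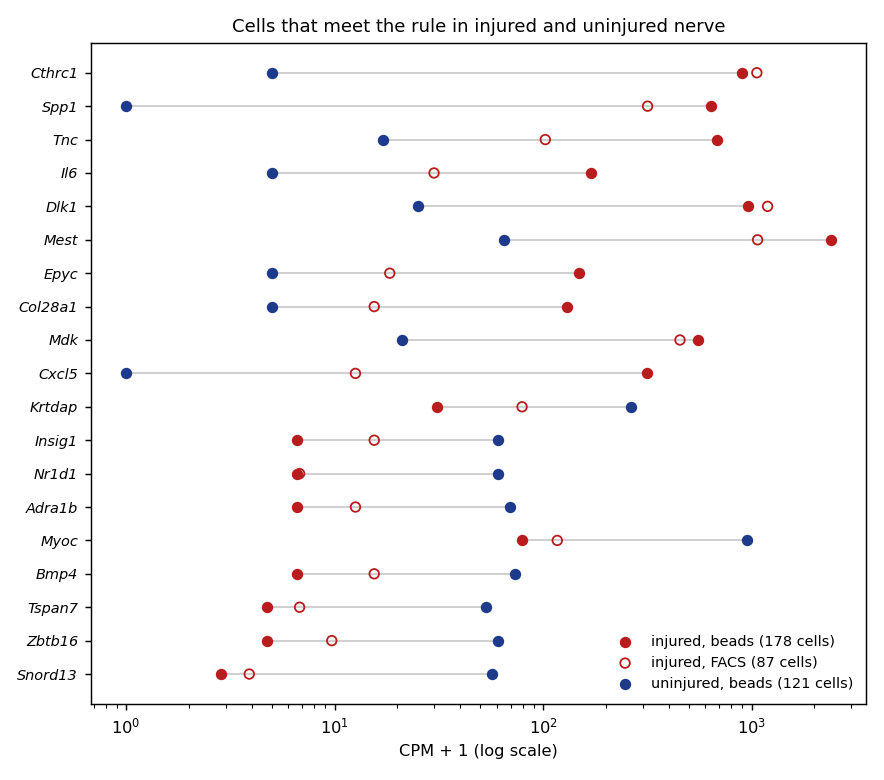
The level (CPM + 1, log scale) of the 10 genes with the highest and of 9 among the 10 with the lowest ratio of injured beads to uninjured cells, all in cells that meet the rule. Filled red points are the injured beads cells, open red points the injured FACS cells and blue points the uninjured cells; the open point of Cxcl5 lies far below the filled red one (11.6 and 315 CPM).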

How the data were processed

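The authors deposited 4 tables of UMI counts per gene and cell, not normalized, which are whole numbers: mesenchymal cells of the uninjured and injured beads libraries, and all barcodes of each injured library. Per the submitters' processing notes, reads were placed on mm10. Aligner, counter, strand use and the authors' way of predicting mesenchymal cells: not given in the sources used here. Gene positions are from GENCODE vM21 (GRCm38). Counts were scaled per cell to 10000, log1p-transformed and z-scored over the cells of a library for the marker sets, and summed over cells for CPM. FACS cells were taken as mesenchymal when they had at least 200 genes and the highest of 15 marker list scores was the mesenchymal one and above 0. Genes missing from the uninjured table counted as 0, and genes missing from the FACS table (1581) had no value. No doublet caller was run, so doublets remain.

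Named genes were the 12 highest and 12 lowest called ratios against other cells, the 12 genes highest above every other group and the 10 highest and lowest between injured and uninjured cells, leaving out mitochondrial, ribosomal, haemoglobin and predicted genes, the marker sets and other cell types' markers; further genes are members of 22 lists. The members and lists were chosen with earlier results of these data known. The size rule and intervals were tested on simulated data. Alternatives were another floor, edgeR (TMM) and DESeq2 scaling, cell weighting, thinning to 1000 UMIs, a margin of 0.25, other marker sets, cells with markers of another type left out, and the FACS library. Used were Python 3.11.15, numpy 2.4.6, scipy 1.17.1, pandas 2.3.3, matplotlib 3.10.9, R 4.3.3, edgeR 4.0.16 and DESeq2 1.42.0. With 1 library per group no test between groups was possible. A few genes that the rule or the lists name are not reported here.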

Additional observations from a re-analysis of the deposited data

Results flagged for a closer look

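The markers of the fibroblasts were also seen in the 3011 barcodes of the injured beads library that lie outside the authors' mesenchymal table. Pi16 had 25.2 CPM there, Dpp4 20.1 CPM, Pcsk6 4.25 CPM, Dmkn 2.45 CPM and Sbsn 4.09 CPM, each above the 0.491 CPM that 3 UMIs make, while Krtdap stood at that level with 3 UMIs. In cells of that library that meet the rule the levels were 1924 CPM for Pi16 and 291 CPM for Dpp4.

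Genes called in opposite directions between a library pair were few, and whether the libraries differ was not tested for any of them. Matn4, a matrilin gene, was higher in the uninjured fibroblasts (log2 1.36) and lower in the cells that meet the rule in the injured beads library (-1.28) and the FACS library (-2.86). In the FACS library Aldh1a3 was at -1.46, Tnfrsf12a at -1.58, Rps4y2 at -2.15, 1110065P20Rik at -1.07 and Pcbp4 at -1.04, all higher in the uninjured fibroblasts. Sdpr went the other way, at 1.90 in the FACS library and -1.81 in the uninjured one.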

How the results depend on the processing

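Left out of the marker set, Dmkn moved the share of fibroblasts to 16.4%. A floor of 10 CPM, or none, gave 796 genes higher and 489 lower than in the other cells, TMM 297 higher and DESeq2 307 higher. Thinned to 1000 UMIs, 265 genes were higher and 246 lower in injured than uninjured cells. Higher in both beads libraries were 173 genes at a floor of 10 CPM, 149 with a margin of 0.25 and 142 with the FACS library in place of beads. Without cells holding other types' markers, Tagln stood at log2 0.25 against other cells, and between injured and uninjured cells Dhrs3 at 0.15, Hmgcs1 at 0.89, Ier3 at -0.26 and the sterol median at 0.15. With FACS cells in place of beads cells, Ly6c1 stood at 0.22, Dact2 at 0.004, Plod1 at -0.30, Wif1 at -0.47, Ccl7 at -1.47, Cxcl14 at -0.92, Dhrs3 at 0.31 and the chemokine median at -0.27. Cxcl5, with 4 UMIs in FACS cells and 0 in uninjured cells, gave no direction there. The causes were not tested. Of 169 genes described against other cells, no other changed sign under the settings run for single genes. Equal set weights and thinning for single genes and lists, and the FACS library and uninjured scoring for them, were chosen after seeing the data. No paired analysis was possible because each group is 1 library without replicate numbers. Intervals cover counting error only, and levels under about 12.003 CPM in the fibroblasts rest on 3 UMIs or fewer.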
